A study of Mus musculus with 15 samples.

Results

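Tryptophan degradation, the making of nicotinamide adenine dinucleotide (NAD) from it and the turnover of nicotinamide were examined through 10 genes of mouse liver, chosen by symbol: Tdo2, Afmid, Kmo, Kynu, Haao, Acmsd, Qprt, Nampt, Nnmt and Nmnat1. Each of the 10 had 1 entry among the 45861 genes of the deposited expression table, and all 10 passed the filter on low values. The libraries came from snap-frozen livers of C57BL/6 mice of 2 genotypes on 2 diets. Fkbp5 knockout (KO) mice lack FKBP5, a co-chaperone of HSP90 that restrains the glucocorticoid receptor; the KO ethanol group held 4 libraries and the KO control group 3. Wild-type (WT) mice gave 4 ethanol and 4 control libraries. The ethanol groups received a liquid diet reaching 5% ethanol, kept there for 10 days, and then a gavage of 5 g/kg ethanol, whereas the control groups received the control liquid diet and a maltose gavage. All livers were collected 9 hours after gavage, so that the ethanol groups combine feeding with a recent large dose. The labels give neither age nor sex, do not say how the knockout allele was made, and title 1 library as WT ethanol replicate 4 although its genotype field reads Fkbp5 KO. That library was kept as WT; its Fkbp5 level of 45.2 FPKM lay within the range of the other WT ethanol libraries.

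The liver is the main site of tryptophan breakdown. TDO2 opens the indole ring, AFMID releases kynurenine, KMO and KYNU convert it to 3-hydroxyanthranilate, and HAAO opens that ring to an unstable semialdehyde. This compound either closes by itself to quinolinate, which QPRT commits to NAD synthesis, or is drawn off by ACMSD toward full oxidation. NAD is also rebuilt from nicotinamide by NAMPT followed by NMNAT enzymes such as NMNAT1, while NNMT methylates nicotinamide, consuming S-adenosylmethionine and taking it out of the salvage route. Tdo2 is a textbook glucocorticoid-induced liver gene.

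Values are FPKM, in which fragments are divided by transcript length and by library size, so that levels of different genes can be set side by side. Depth was estimated from the values at about 23500000 to 29800000 fragments per library, and between 11701 and 13112 genes reached 1 FPKM. Fkbp5 lay between 2.45 and 5.41 FPKM in KO ethanol livers, between 0.351 and 1.56 in KO control, between 23.9 and 54.5 in WT ethanol and between 3.27 and 15.2 in WT control. KO and WT libraries did not overlap on either diet. The sum of 8 hepatocyte markers ran from 11824 to 28388 FPKM, with Alb listed at 0 in KO ethanol replicate 3, while the kidney markers Umod, Kap and Slc12a1 were listed at 0 everywhere. In KO control replicate 1, 59.3% of all FPKM came from 10 genes. Its FPKM summed to 790740, beside 416840 to 525110 in the other libraries. Several differences are also given without this library. Without it the log2 difference between ethanol and control in KO was 0.062 for Afmid, -0.064 for Kmo, 0.55 for Tdo2 and -0.0006 for Nampt, none of which passed. Xist was above 10 FPKM in 1 of 4 KO ethanol, 2 of 3 KO control, 2 of 4 WT ethanol and 2 of 4 WT control libraries.

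On these scales the pathway was not one of uniform levels. Tdo2 had the highest mean of the 10 genes in each of the 4 groups, at 452 ± 118 FPKM in KO ethanol (SD, n = 4), 265 ± 91.9 in KO control (n = 3), 458 ± 238 in WT ethanol (n = 4) and 271 ± 135 in WT control livers (n = 4). Nampt, Nmnat1 and Acmsd filled the lowest 3 places in each group, with group means between 3.56 and 11.6 FPKM. Haao held rank 2 in both control groups and rank 3 in both ethanol groups, where Nnmt held rank 2. Nnmt was at rank 6 in both control groups. Qprt moved the other way, at rank 7 in both ethanol groups, rank 5 in KO control and rank 3 in WT control livers. Ranges of neighbouring genes overlapped at many of these steps: Nnmt and Haao overlapped in both ethanol groups, and Qprt, Kynu, Kmo and Nnmt formed an overlapping run in WT control livers. Haao and its lower neighbour did not overlap in any group.

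**Figure D1:**
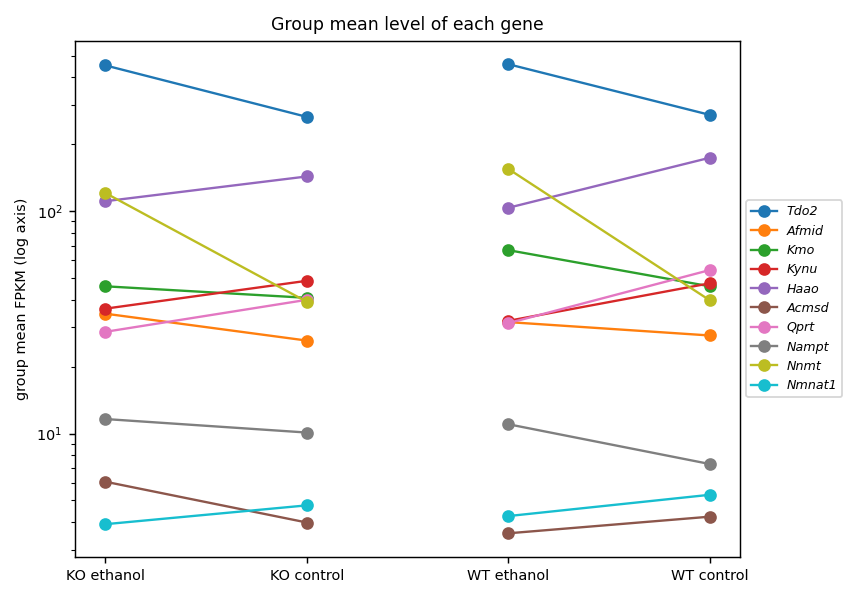
Group mean level of each of the 10 genes (FPKM, log axis) in KO ethanol, KO control, WT ethanol and WT control livers, with 1 coloured line per gene joining the diets within a genotype. Tdo2 is highest in each group, the Nnmt line is the steepest, with means of 121 and 155 FPKM on ethanol and 39.1 and 39.7 on control, and Haao and Qprt slope the opposite way.

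Ethanol diet plus binge was compared with the control diet within each genotype. In WT livers 3 of the 10 genes passed the test: Nnmt rose, and the consecutive quinolinate-route enzymes Haao and Qprt fell. In KO livers none of the 10 passed (limma, Benjamini-Hochberg adjusted over all 13840 genes tested), although 3 of them, the same Nnmt, Haao and Qprt, had an unadjusted p under 0.05 and the direction seen in WT. Over all genes tested, 21.7% had an unadjusted p under 0.05 in KO and 25.8% in WT. The effect of ethanol was not shown to differ between genotypes for any of the 10. Over all genes tested, 7.7% passed in WT, 3.09% as higher and 4.62% as lower, and 4.13% passed in KO, 1.4% as higher and 2.72% as lower. The KO split of 194 higher and 377 lower genes turned to 382 higher and 22 lower when each library was rescaled to a common sum. The median log2 difference of the 10 genes was 0.16 in KO and -0.07 in WT, beside -0.10 and -0.04 over all genes tested.

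**Figure D2:**
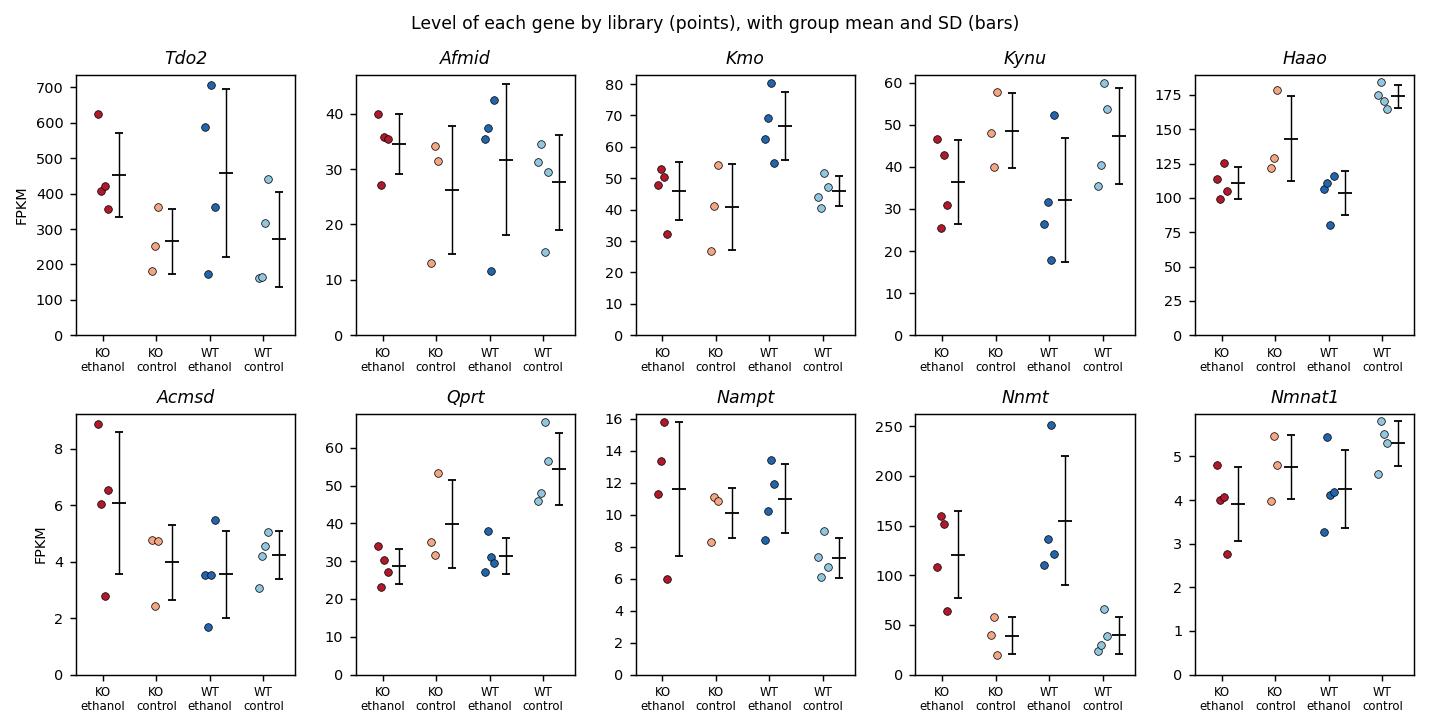
FPKM of each gene in every library (points), with the group mean and SD (bars) beside them; axes start at 0 and differ between panels. Nnmt is higher and Haao and Qprt are lower in all 4 WT ethanol livers than in any WT control liver; Tdo2 and Afmid spread widely within groups.

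Tdo2, the first and rate-setting enzyme, lies on chromosome 3. Its level was 624, 407, 420.2 and 358 FPKM in KO ethanol livers, against 181, 251 and 363 in KO control livers. WT livers held 588, 174, 708 and 362 FPKM on ethanol, against 161, 165, 316 and 442 on control. The groups overlapped in both genotypes: KO control replicate 3 exceeded KO ethanol replicate 4, WT ethanol replicate 2 lay near the 2 lowest controls, and WT control replicate 4 above replicate 4 of the ethanol group. The log2 difference was 0.79 in KO (95% interval -0.22 to 1.80, limma adjusted p = 0.347) and 0.70 in WT (-0.23 to 1.64, adjusted p = 0.325). Both intervals include 0. Over the alternatives other than leaving out a library, the Tdo2 difference ran from 0.41 to 1.14 in KO and from 0.48 to 0.75 in WT. With a term for Xist class, the KO difference minus the WT difference was -0.29.

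Afmid, the kynurenine formamidase, is encoded on chromosome 11. Its level was 40.0, 27.0, 35.8 and 35.5 FPKM in KO ethanol against 13.0, 34.1 and 31.5 in KO control livers, and 35.4, 37.3, 11.7 and 42.4 in WT ethanol against 31.3, 34.5, 15.04 and 29.5 in WT control livers. A single low library stood in each of 3 groups, namely KO control replicate 1, WT ethanol replicate 3 and WT control replicate 3. The difference was 0.49 in KO (adjusted p = 0.545) and 0.11 in WT (adjusted p = 0.884). Its main isoform of 2332 bases made up 75.3% of its FPKM. Afmid exons overlap those of Tk1 on the opposite strand and of Gm20708 on the same strand, so that reads could be shared and its level is uncertain.

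Kmo, the hydroxylase that makes 3-hydroxykynurenine, lies on chromosome 1 and had a single isoform. Its level was 47.7, 53.1, 50.5 and 32.3 FPKM in KO ethanol livers, against 26.9, 41.0 and 54.3 in KO control livers. In WT ethanol livers it was 62.5, 69.4, 80.4 and 54.8 FPKM, against 44.1, 40.5, 51.8 and 47.3 in WT control livers. All 4 WT ethanol libraries lay above all 4 WT controls, while the KO groups overlapped; such separation was found in 15.7% of all genes in WT, 6.4% as higher and 9.28% as lower. The difference in WT was 0.52 on the log2 scale (95% interval 0.08 to 0.97), which did not pass after adjustment (limma adjusted p = 0.134), and that in KO was 0.20 (-0.28 to 0.68, adjusted p = 0.643).

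Kynu, the kynureninase that follows, lies on chromosome 2. It had 46.5, 25.5, 42.9 and 30.8 FPKM in KO ethanol against 48.1, 39.9 and 57.8 in KO control livers, and 26.4, 31.7, 17.9 and 52.4 in WT ethanol against 35.4, 40.4, 59.8 and 53.8 in WT control livers. In WT, 3 of 4 ethanol livers lay below all the controls, and replicate 4, the library with the conflicting genotype label, lay among them. The difference was -0.43 in KO (adjusted p = 0.454) and -0.62 in WT (95% interval -1.24 to 0.01, adjusted p = 0.198). Without WT ethanol replicate 4 the WT difference was -0.88 and passed (limma adjusted p = 0.0425).

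Haao, the dioxygenase that opens the ring of 3-hydroxyanthranilate, lies on chromosome 17 from 83831348 to 83847958 (GRCm38), the chromosome that also carries Fkbp5 at 28398753 to 28486149. Its level was 114, 99.1, 126 and 105 FPKM in KO ethanol livers, against 122, 129 and 179 in KO control livers. In WT ethanol livers it was 106, 111, 80.5 and 116 FPKM, against 175, 185, 170.4 and 165 in WT control livers. Every WT ethanol liver was well below every WT control liver, and the WT controls lay close together, at a mean of 174 ± 8.29 FPKM (SD, n = 4) beside 104 ± 15.8 in the ethanol group (n = 4). In KO the groups met only where ethanol replicate 3 exceeded control replicate 1. Haao fell in WT by 0.75 on the log2 scale (SE 0.147, 95% interval -1.07 to -0.44, limma adjusted p = 0.0110), so that the mean on ethanol was 0.596 times that on control. In KO the difference was -0.35 (-0.69 to -0.01, adjusted p = 0.218), and -0.46 without KO control replicate 1. The KO value depended on scaling, being -0.0048 after rescaling to a common sum, which lowered KO control replicate 1 the most. With that rescaling the WT fall was 0.87 with a wider SE of 0.248, and it no longer passed (limma adjusted p = 0.0682). One isoform of 1224 bases made up 91.3% of Haao in KO ethanol, 92.1% in KO control, 90.5% in WT ethanol and 90.9% in WT control livers, so that the lower gene level was a lower level of this isoform.

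Qprt, the phosphoribosyltransferase that commits quinolinate to NAD, lies on chromosome 7 from 127107770 to 127122029 and had a single isoform. Its level was 34.1, 23.1, 30.2 and 27.3 FPKM in KO ethanol livers, against 35.0, 31.5 and 53.2 in KO control livers. The WT livers had 27.1, 37.9, 31.1 and 29.4 FPKM on ethanol, against 45.9, 48.1, 66.8 and 56.6 on control. As with Haao, the WT groups were separate, and the KO groups overlapped only because KO control replicate 2 was below ethanol replicate 1. Qprt fell in WT by 0.77 (SE 0.181, 95% interval -1.16 to -0.38, limma adjusted p = 0.0240), to 0.577 times the control mean. In KO the difference was -0.44 (-0.86 to -0.02, adjusted p = 0.212), and -0.52 without KO control replicate 1. The WT call was the least secure of the 3: adjusted p came to 0.0615 without WT control replicate 3, 0.0609 without WT control replicate 4, 0.0729 without WT ethanol replicate 1 and 0.0503 without WT ethanol replicate 3. It came to 0.0565 after rescaling to a common sum.

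The starts of Haao and Qprt are shown because these are the 2 members that fell together. Each is 300 bases of RefSeq sequence (GRCm38.p6), 250 before an annotated start and 50 from it on, at chr17:83846741-83847040 for Haao and chr7:127121980-127122279 for Qprt, both on the minus strand and printed 5′ to 3′ in the direction of transcription. The Qprt start, at 127122029, is the upstream end of the gene, whereas the Haao start, at 83846790, lies inside a gene span that ends at 83847958 in the deposited table, so that a start further upstream is not covered. The motifs searched on both strands were the half-site of the glucocorticoid response element AGAACA, the E-box CACGTG and the TATA box TATAAA. Capitals mark a match.
Haao: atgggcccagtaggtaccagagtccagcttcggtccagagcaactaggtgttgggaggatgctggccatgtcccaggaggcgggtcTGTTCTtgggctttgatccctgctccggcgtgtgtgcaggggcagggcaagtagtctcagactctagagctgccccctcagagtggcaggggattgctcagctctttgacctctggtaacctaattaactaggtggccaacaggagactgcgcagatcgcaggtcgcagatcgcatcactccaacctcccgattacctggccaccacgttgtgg
Qprt: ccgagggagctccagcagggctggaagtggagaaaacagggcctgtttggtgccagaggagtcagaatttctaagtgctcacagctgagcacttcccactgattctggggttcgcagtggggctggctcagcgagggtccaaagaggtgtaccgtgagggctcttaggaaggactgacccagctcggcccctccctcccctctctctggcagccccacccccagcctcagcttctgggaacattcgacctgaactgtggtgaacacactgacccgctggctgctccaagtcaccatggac
The Haao promoter held 1 AGAACA, on the opposite strand and with its first printed base at position -164, and the Qprt promoter held none of the 3 motifs. Over all 32851 promoters of the table, 19% held AGAACA, 7.15% CACGTG and 13.6% TATAAA. The annotation table had 9 promoters for 8 of the 10 genes. Among the others, Kmo held 1 AGAACA on the opposite strand, beginning at position 15 downstream, and Tdo2 held 1 TATAAA at -229.

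Acmsd, the decarboxylase that diverts the semialdehyde from quinolinate, lies on chromosome 1. It had 8.88, 6.06, 2.79 and 6.55 FPKM in KO ethanol against 4.76, 2.45 and 4.73 in KO control livers, and 3.52, 1.70, 3.54 and 5.48 in WT ethanol against 3.08, 4.19, 4.57 and 5.07 in WT control livers. All groups overlapped, and the highest library was KO ethanol replicate 1. Neither the difference of 0.46 in KO (adjusted p = 0.439) nor that of -0.25 in WT (adjusted p = 0.635) passed. At its lowest library this gene rested on about 100 estimated fragments, a counting error of 9.84%. Its exons overlap 2900009J06Rik on the opposite strand, and the counting is not stated to use strand, so that its level is uncertain.

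Nampt, the rate-setting enzyme of nicotinamide salvage, lies on chromosome 12. It had 11.3, 13.4, 15.8 and 5.96 FPKM in KO ethanol against 8.29, 11.1 and 10.9 in KO control livers, and 8.45, 10.2, 13.4 and 11.9 in WT ethanol against 7.35, 6.11, 9.00 and 6.71 in WT control livers. KO ethanol livers held both the highest and the lowest value of all 15 libraries. The WT groups overlapped only because ethanol replicate 1 was below control replicate 3. The difference was 0.12 in KO (adjusted p = 0.811) and 0.53 in WT (95% interval 0.03 to 1.03, adjusted p = 0.174).

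Nmnat1, the nuclear adenylyltransferase that completes NAD, lies on chromosome 4. It was the steadiest of the 10, with a ratio of highest to lowest library of 2.10. It had 4.80, 4.00, 4.08 and 2.76 FPKM in KO ethanol against 3.98, 5.46 and 4.81 in KO control livers, and 3.27, 5.45, 4.10 and 4.19 in WT ethanol against 4.59, 5.81, 5.51 and 5.30 in WT control livers. The difference was -0.24 in KO (adjusted p = 0.414) and -0.27 in WT (adjusted p = 0.262), with overlapping groups. It was also the most thinly measured, at about 80 fragments in its lowest library.

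Nnmt, the nicotinamide methyltransferase, showed the widest range of the 10, 12.5-fold between KO control replicate 3 and WT ethanol replicate 3. It lies on chromosome 9 from 48538002 to 48607635. Its level was 108, 159.5, 151 and 63.9 FPKM in KO ethanol livers, against 39.6, 57.6 and 20.1 in KO control livers. In WT ethanol livers it was 111, 137, 251 and 121 FPKM, against 24.1, 29.8, 66.1 and 38.9 in WT control livers. Ethanol and control groups were separate in both genotypes; KO ethanol replicate 4 came closest, at 63.9 beside 57.6 in KO control replicate 2. Such separation was found in 20.9% of all genes in KO, 5.72% as higher. Nnmt rose in WT by 1.96 on the log2 scale (SE 0.401, 95% interval 1.09 to 2.82, limma adjusted p = 0.0143), to 3.90 times the control mean. In KO the difference was 1.64 (SE 0.434, 0.70 to 2.57) with an adjusted p of 0.0516, just above the threshold of 0.05. Without KO control replicate 1 it was 1.70 (adjusted p = 0.112), and without KO ethanol replicate 4 it was 1.91 and passed (adjusted p = 0.0331). It also passed after median-ratio scaling (adjusted p = 0.0463), quantile normalization (0.0420) and rescaling to a common sum (0.0229). In KO it passed in only 5 of 16 alternatives. The smallest difference was 1.23, without KO control replicate 3 (limma adjusted p = 0.159). The isoform of 1013 bases made up 60.9% of Nnmt in KO ethanol, 46.2% in KO control, 60.2% in WT ethanol and 60.0% in WT control livers, and one of 882 bases nearly all the rest.

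**Figure D3:**
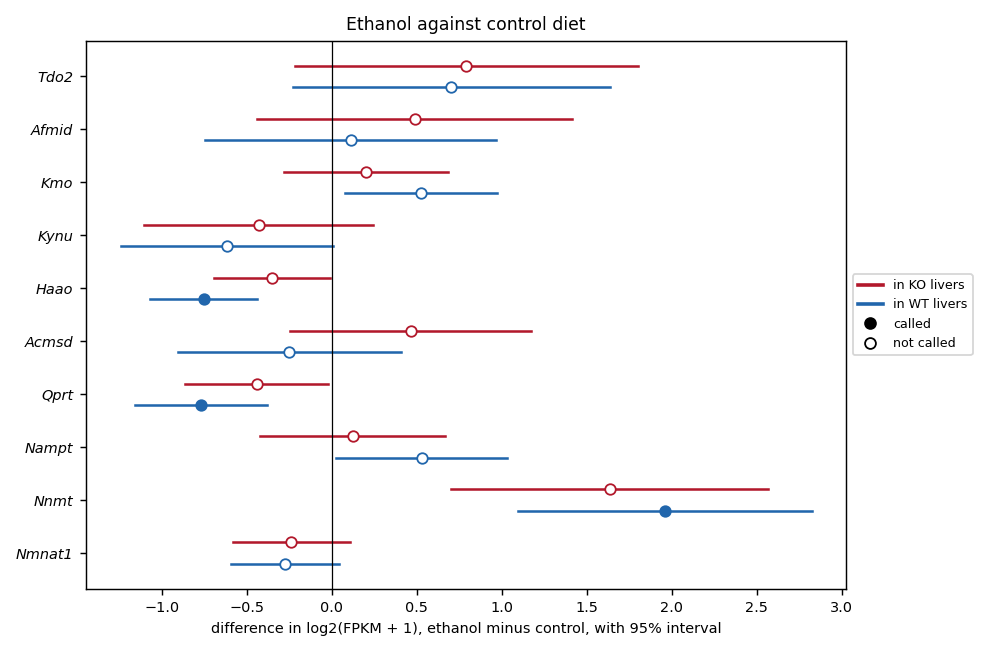
Difference in log2(FPKM + 1), ethanol minus control, with its 95% interval, for each gene in KO (red) and WT (blue) livers; filled points passed at an adjusted p under 0.05. The filled points are Haao (-0.75), Qprt (-0.77) and Nnmt (1.96) in WT, and the KO interval of the same gene overlaps the WT interval in each of the 10 pairs.

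WT ethanol replicate 3 lay at an extreme of all 15 libraries for 6 of the 10 genes, being highest for Tdo2, Kmo and Nnmt and lowest for Afmid, Kynu and Haao. Without it, Haao fell by 0.64 (adjusted p = 0.0252) and Nnmt rose by 1.70 (adjusted p = 0.0374) in WT, so that both calls remained. Xist was high in 2 of 4 libraries of each WT group, so a term for Xist class could change only the errors of the WT differences. All 3 WT calls stayed, with limma adjusted p of 0.00869 for Haao, 0.0182 for Qprt and 0.0128 for Nnmt. The KO groups were not balanced for Xist. There the term gave -0.32 for Haao, -0.51 for Qprt and 1.63 for Nnmt, and none of these passed.

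Cell type markers were read beside these results, since in whole liver fewer cells of a type and less RNA per cell cannot be told apart. Markers of pancreatic acinar cells, a type foreign to liver, moved with the WT comparison: each of the 9 tested, of 10 on the list, fell. Their summed level was 0.988 to 4.56 FPKM in KO ethanol, 2.67 to 11.2 in KO control, 3.55 to 25.1 in WT ethanol and 26.1 to 88.3 in WT control livers. Their part in the changes of Haao, Qprt and Nnmt was not tested. None of the 9 Kupffer cell and macrophage markers passed in any comparison, with sums of 29.7 to 94.4 FPKM in KO ethanol, 59.0 to 286 in KO control, 49.0 to 112 in WT ethanol and 78.6 to 162 in WT control livers. With limma, 5 of these 9 markers had an unadjusted p under 0.05 for ethanol in KO, all with lower means on ethanol (-1.12 for Adgre1 to -1.34 for Cd5l), and 1 in WT, Cd163, with a higher mean (0.48). Their part in the differences in KO was not tested. Of 8 hepatocyte markers, only Cps1 passed, higher in WT on ethanol, and of 6 endothelial markers only Lyve1, also higher there. The median of the endothelial markers was -0.67 in KO and -0.51 in WT. An unadjusted p under 0.05 was found for 4 of the 6 in KO and 3 in WT (limma). The shares over all genes tested were 21.7% and 25.8%. Those counted did not all move the same way. Lower on ethanol were Fcgr2b (-1.24 in KO, -0.93 in WT), Stab2 (-0.70 in KO, -0.46 in WT) and, in KO only, Clec4g. Lyve1 was higher on ethanol in both, by 1.298 in KO and 1.822 in WT. Pecam1, not counted in either, also had a positive difference in both. The part of the endothelial markers in the members' values was not tested.

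The genotypes were then compared on each diet, which asks whether loss of Fkbp5 altered these genes. These comparisons use the same 15 libraries as those of diet. None of the 10 passed on either diet (limma), where 0.101% of all genes passed on the ethanol diet and 0.181% on the control diet. On the ethanol diet 1 of the 10 had an unadjusted p under 0.05, namely Kmo, and on the control diet 1, namely Qprt; over all genes tested these shares were 5% and 4.23%. Of the 9 tested acinar markers, 5 passed as lower in KO than in WT control livers, and all 9 had an unadjusted p under 0.05 (limma), with differences between -1.74 for Try4 and -2.75 for Ctrb1 and a median of -1.99. Their part in the control-diet values, those of Qprt included, was not tested. The median log2 difference of the 10, KO minus WT, was 0.06 on ethanol and -0.11 on control, beside -0.02 and 0.03 over all genes tested.

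Kmo was 45.9 ± 9.33 FPKM in KO ethanol livers (SD, n = 4) against 66.8 ± 10.8 in WT ethanol livers (n = 4). All 4 KO ethanol livers, from 32.3 to 53.1 FPKM, lay below all 4 WT ethanol livers, from 54.8 to 80.4, a separation found in 2.44% of all genes, 1.58% as lower. The difference was -0.54 (95% interval -0.99 to -0.09) and did not pass after adjustment (limma adjusted p = 0.912). On the control diet Kmo overlapped between genotypes, with a difference of -0.22 (-0.70 to 0.27). Qprt on the control diet was 39.9 ± 11.7 FPKM in KO (n = 3) against 54.3 ± 9.48 in WT (n = 4), a difference of -0.46 (-0.88 to -0.03, adjusted p = 1), with KO control replicate 3 inside the WT range. On ethanol it was 28.7 ± 4.64 FPKM in KO against 31.4 ± 4.64 in WT, a difference of -0.13 (-0.52 to 0.26).

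Haao showed a smaller step of the same order on the control diet, at 143 ± 31.0 FPKM in KO against 174 ± 8.29 in WT (difference -0.30, 95% interval -0.64 to 0.04), and near equal means on ethanol, at 111 ± 11.5 in KO against 104 ± 15.8 in WT (0.11, -0.21 to 0.42). Acmsd on ethanol was 6.07 ± 2.51 FPKM in KO against 3.56 ± 1.55 in WT, with a difference of 0.62 (-0.04 to 1.28). Nampt on control was 10.1 ± 1.57 FPKM in KO against 7.29 ± 1.25 in WT, with a difference of 0.42 (-0.12 to 0.97). Nnmt differed by -0.36 on ethanol (-1.23 to 0.50) and by -0.04 on control (-0.97 to 0.90), intervals that leave room for a change of nearly 1 log2 unit in either direction on the control diet. Tdo2, the glucocorticoid-induced member, differed by 0.14 on ethanol (-0.80 to 1.07) and by 0.05 on control (-0.96 to 1.06). The remaining differences lay between -0.14 and 0.25, with intervals that include 0. Without KO control replicate 1 the control-diet difference was -0.38 for Qprt, -0.19 for Haao, 0.55 for Nampt, -0.11 for Nnmt and 0.29 for Tdo2, Kmo changed sign to 0.046, Afmid changed sign to 0.30, and again none of the 10 passed.

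**Figure D4:**
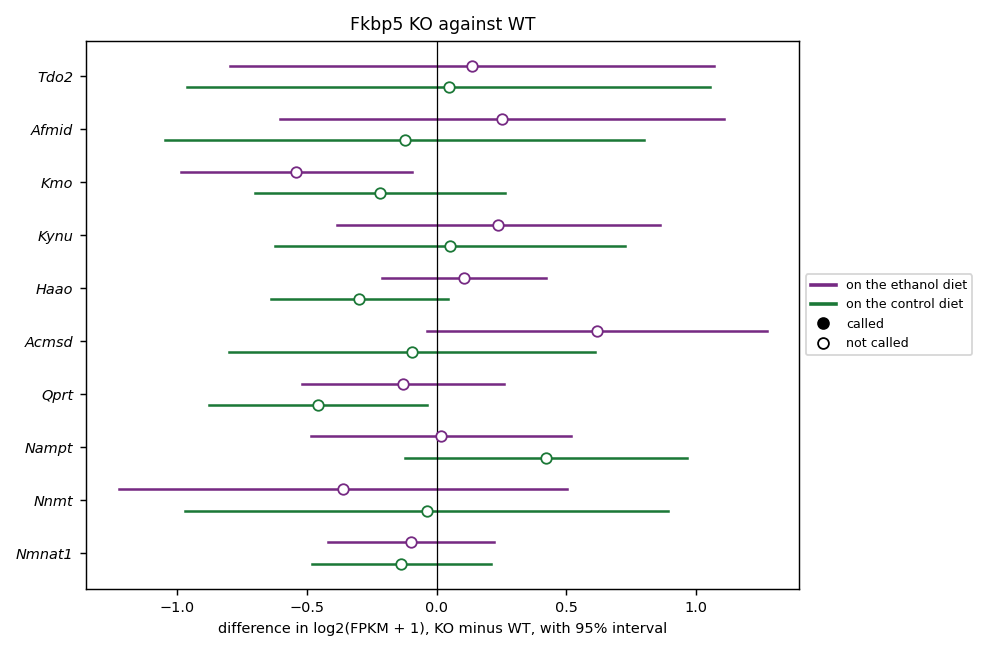
Difference in log2(FPKM + 1), KO minus WT, with its 95% interval, for each gene on the ethanol (purple) and control (green) diet; open points did not pass. No point is filled, and the intervals that leave out 0 are those of Kmo on ethanol (-0.54) and Qprt on control (-0.46).

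The interaction asks whether ethanol acted differently in KO and WT livers. None of the 10 genes passed and none had an unadjusted p under 0.05 (limma; 0% of all genes passed, and 553 genes, or 4.00%, had an unadjusted p under 0.05). Without KO control replicate 1, 43 genes passed, all with the KO effect below the WT effect, and no member was among them. All 9 tested acinar markers had an unadjusted p under 0.05 in the interaction, with a median of 1.37, and their part in these values was not tested. For the 3 genes called in WT, the KO effect minus the WT effect was 0.40 for Haao (95% interval -0.06 to 0.87), 0.33 for Qprt (-0.25 to 0.90) and -0.32 for Nnmt (-1.60 to 0.95). For each of the 3 the KO effect was thus the smaller in size, by an amount within error. The intervals also include no difference at all. For Haao and Qprt they reach past the size of the WT estimate. The KO intervals themselves, not adjusted for the number of genes, narrowly leave out 0 (-0.69 to -0.01 for Haao, -0.86 to -0.02 for Qprt). The largest estimate was that of Acmsd, 0.71 (-0.25 to 1.68). Without KO control replicate 1 the interaction was 0.30 for Haao, 0.25 for Qprt, -0.26 for Nnmt and 0.84 for Acmsd, and none passed.

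Related genes of the pathway were read from 6 lists around the 10 genes. Of 9 tested genes that synthesise or salvage NAD, 2 passed, both lower in WT on ethanol. Nadk2, the mitochondrial NAD kinase, was 23.6 ± 4.98 FPKM in WT ethanol against 36.0 ± 4.94 in WT control livers (SD, n = 4 each; log2 difference -0.61, limma adjusted p = 0.0457). Naprt, which starts NAD synthesis from nicotinic acid, was 17.1 ± 4.74 against 26.3 ± 3.49 FPKM in the same groups (-0.62, adjusted p = 0.0474). In KO the differences were -0.43 for Nadk2 (adjusted p = 0.190) and -0.35 for Naprt (adjusted p = 0.301). With limma, 1 gene of the list had an unadjusted p under 0.05 in KO and 2 had one in WT. The list's median was -0.08 in KO and -0.21 in WT.

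Of 15 tested enzymes that consume NAD, the sirtuins, poly-ADP-ribose polymerases and NAD hydrolases, 1 passed. Sirt7, a nucleolar NAD-dependent deacylase, had 6.24, 7.33, 5.26 and 7.49 FPKM in WT ethanol livers, against 10.8, 10.7, 11.0 and 13.7 in WT control livers. It fell by 0.73 on the log2 scale there (SE 0.123, limma adjusted p = 0.00641), and the groups were separate. In KO livers it had 7.85, 5.95, 7.99 and 7.92 FPKM on ethanol, against 9.99, 10.6 and 11.3 on control, which were separate too, with a difference of -0.47 (adjusted p = 0.0628). Of the 15, 6 had an unadjusted p under 0.05 in KO (limma), where none passed, all with lower means on ethanol, and 8 had one in WT, 7 with lower means and Cd38, an NAD hydrolase, with a higher one (0.40). The shares over all genes tested were 21.7% in KO and 25.8% in WT. The list's median was -0.20 in KO and -0.30 in WT.

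Among 7 tested transporters listed for tryptophan and other amino acids, nicotinate and NAD, Slc36a4, whose human counterpart carries tryptophan with high affinity, passed in both genotypes. It had 2.95, 2.84, 3.15 and 4.52 FPKM in KO ethanol livers, against 1.84, 1.71 and 1.29 in KO control livers. In WT ethanol livers it had 3.91, 3.11, 2.92 and 2.63 FPKM, against 1.36, 1.48, 2.11 and 1.71 in WT control livers. The log2 rise was 0.73 in KO livers (limma adjusted p = 0.0228) and 0.64 in WT livers (0.0186), with separate groups in both, and it was the only gene of the 6 lists and of the 10 genes to pass in KO livers. Of the 7 transporters, 3 had an unadjusted p under 0.05 in KO and 3 in WT (limma), beside 21.7% and 25.8% of all genes tested. Besides Slc36a4 these were Slc25a51, higher on ethanol (1.48 in KO, 1.28 in WT), and Slc7a8, lower (-0.63 in KO, -0.52 in WT). Slc7a8 was low in level, with group means of 0.499 to 1.53 FPKM.

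No gene of the other 3 lists passed (limma), and for each the gene with the lowest p is given. Of 9 tested enzymes on the branches of tryptophan and kynurenine breakdown this was Aldh8a1, the dehydrogenase after ACMSD, at 54.9 ± 17.5 FPKM in WT ethanol against 80.6 ± 6.83 in WT control livers (-0.59, adjusted p = 0.120) and with -0.50 in KO (adjusted p = 0.254). Of the 2 aldehyde oxidases, which can oxidise methylated nicotinamide, it was Aox3, at 25.9 ± 6.57 FPKM in KO ethanol against 99.0 ± 78.2 in KO control livers (-1.66, adjusted p = 0.111) and with -1.48 in WT (adjusted p = 0.0972). Of 5 tested genes of the aryl hydrocarbon receptor, which binds kynurenine, it was the receptor gene Ahr, at 15.7 ± 3.47 FPKM in KO ethanol against 8.66 ± 2.84 in KO control livers (0.81, adjusted p = 0.0614) and with 0.49 in WT (adjusted p = 0.160). This list's median was 0.81 in KO and 0.98 in WT. An unadjusted p under 0.05 (limma) was found for 0 branch enzymes in KO and 2 in WT. It was found for 2 aldehyde oxidases in KO, which went opposite ways, Aox3 lower and Aox1 higher on ethanol (1.04). In WT it was found for 1 aldehyde oxidase, Aox3. Of the receptor-list genes, 2 had one in KO and 3 in WT. Between genotypes and in the interaction no gene of the 6 lists passed (limma); the genes with an unadjusted p under 0.05 were Nnt on the ethanol diet and Slc22a7 on the control diet, and none in the interaction.

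**Figure D5:**
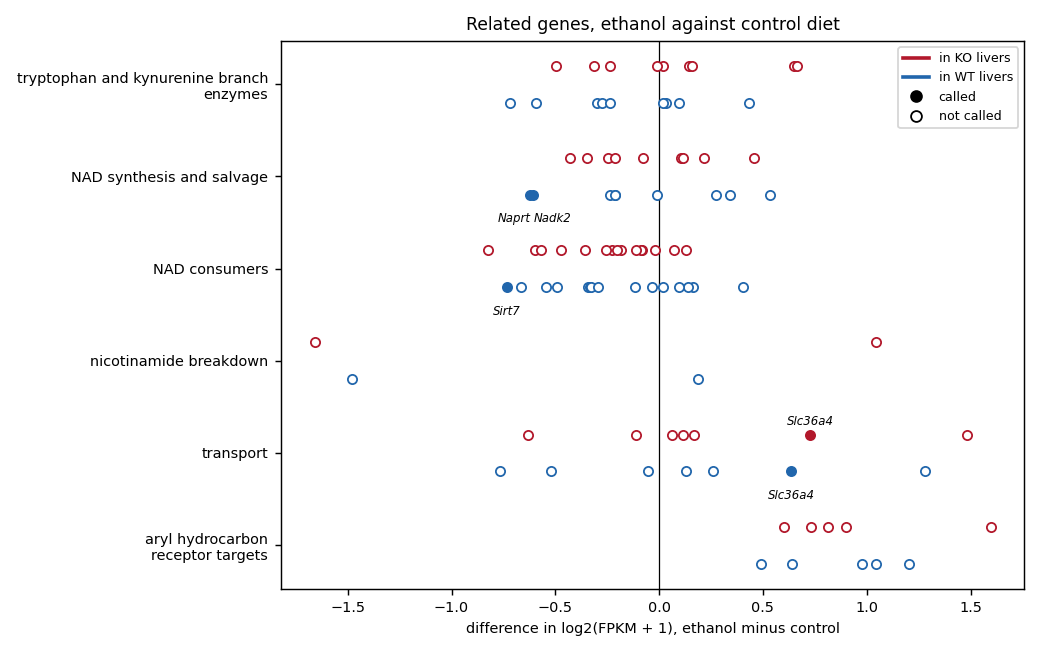
Difference in log2(FPKM + 1), ethanol minus control, of each tested gene of 6 related lists in KO (red) and WT (blue) livers; filled points passed and are named. Naprt (-0.62), Nadk2 (-0.61) and Sirt7 (-0.73) are filled in WT, and Slc36a4 is filled in KO (0.73) and in WT (0.64).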

How the data were processed

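RNA of 15 snap-frozen mouse livers was read on Illumina's NextSeq platform, per the labels' protocols. The submitters' processing notes name TopHat, Cufflinks, Cuffdiff and mm9. Their versions are not given in the sources used here. The authors deposited FPKM per gene and per isoform and no counts, so that no count model was used. Transcript length in bases, deposited with the isoforms, is listed under other units. Although the notes name mm9, 99.53% of symbols matched once overlapped their GRCm38 gene, and positions are given on GRCm38. Strand-specific counting is not stated. Depth was estimated from the value that 1 fragment gives in single-isoform genes of at least 3000 bases. At these depths 1 fragment on 1 kb gives 0.0335 to 0.0426 FPKM, and counting errors cover counting only.

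Groups follow the titles. The protocol states 4 animals a group, while KO control holds 3 libraries. The labels do not tie each library to its own animal, and p-values then reflect only how these libraries vary. A gene entered the test when 3 or more libraries reached 1 FPKM. limma 3.58.1 in R 4.3.3 fitted 4 group means to log2(FPKM + 1) over the 15 libraries (lmFit, eBayes with trend), with 2-sided tests. A gene passed at a Benjamini-Hochberg adjusted p under 0.05 over 13840 genes. Adding 1 understates fold changes of low genes. The fit was tested on simulated data with independent normal errors, a setting that does not cover scaling, a deviating library or Xist class. All 10 genes were named in each comparison, and of each related list the genes that passed, at most 4 per comparison, or else the one with the lowest p. Values outside that rule (Nnt, Slc22a7, Slc25a51, Slc7a8, Cd38, Aox1 and the single cell type markers, and Aox3 and Tdo2 by Xist class) were picked after they were seen. The 10 genes, the lists and the alternatives were chosen with earlier results of these data known. Alternatives were another pseudocount, no filter, 3 scalings, a replicate block, a fit restricted to the groups compared, a sex term by Xist, the regrouping of WT ethanol replicate 4 and leaving out each library. The alternatives were read for the 10 genes and over all genes, and not for the single genes of the related lists or the cell type markers. Motifs were matched in RefSeq promoters of GRCm38.p6. Python 3.11.15, pandas 2.3.3, numpy 2.4.6, scipy 1.17.1 and matplotlib 3.10.9 were used.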

Additional observations from a re-analysis of the deposited data

How the results depend on the processing

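Of the 3 WT calls, Nnmt remained past the threshold in 17 of 17 alternatives, with adjusted p between 0.00922 and 0.0458, Haao in 16 and Qprt in 12. Rescaling to a common sum left 1 call in WT, that of Nnmt, in place of 3. In KO livers the count of 0 became 1, again Nnmt, with WT ethanol replicate 4 placed with KO ethanol, after rescaling to a common sum, after median-ratio scaling and after quantile normalization. Leaving out each library in turn gave 2 to 4 calls in WT and 0 to 1 in KO. No member passed between genotypes or in the interaction under any alternative. Rescaling to a common sum moved the median log2 difference of all genes for ethanol to 0.17 in KO and -0.12 in WT, against -0.10 and -0.04, and for KO against WT to 0.07 on ethanol and -0.23 on control, against -0.02 and 0.03. For the interaction it was 0.31 against -0.05.

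Same-numbered libraries correlated between -0.33 and 0.44 in their deviations from group means, so that the numbers were not taken to pair the mice. With a replicate block the members called numbered 3 in WT and 0 in KO, as without it, and over all genes 673 passed in WT and 303 in KO. Over the other alternatives, apart from leaving out single libraries, the calls over all genes ranged from 492 to 1827 in WT and from 97 to 618 in KO. The 97 came from the fit of only the groups compared. Leaving out single libraries gave 384 to 1772 in WT and 95 to 479 in KO. Between genotypes the calls ranged from 0 to 22 on ethanol and from 4 to 29 on control, against 14 and 25. The 4 again came from the fit of only the groups compared. Leaving out single libraries gave 4 to 13 calls on ethanol and 1 to 50 on control. The 50 came without KO control replicate 1 and the 1 without KO control replicate 2. In the interaction the calls ranged from 0 to 1. Leaving out single libraries gave 0 to 43 there, the 43 again without KO control replicate 1. A fit of only the groups compared gives no interaction.

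No called difference changed direction, but differences that had not passed did, interactions of -0.41 for Nampt and -0.32 each for Nnmt and Kmo among them, and the cause was not tested. Rescaling to a common sum gave an interaction of 0.13 for Kmo, 0.0043 for Nampt and 0.13 for Nnmt, a control-diet KO difference of -0.29 for Kynu and -0.30 for Tdo2, and an ethanol difference in KO of 0.031 for Nmnat1. Quantile normalization gave control-diet KO differences of -0.032 for Kynu and -0.10 for Tdo2, and median-ratio scaling -0.0012 for Tdo2. The sex term gave Tdo2 -0.094 between genotypes on ethanol and -0.29 in the interaction. Moving WT ethanol replicate 4 gave -0.072 for Afmid under ethanol in WT and -0.020 for the Tdo2 interaction, and the block gave 0.015 for Acmsd between genotypes on control. Leaving out each library in turn changed the sign of 19 of the 50 single-gene differences. Between genotypes on control the ranges were -0.22 to 0.15 for Acmsd, -0.38 to 0.30 for Afmid, -0.45 to 0.046 for Kmo, -0.078 to 0.18 for Kynu, -0.37 to 0.36 for Nnmt and -0.21 to 0.33 for Tdo2. On ethanol they were -0.16 to 0.44 for Afmid, -0.0096 to 0.16 for Haao, -0.15 to 0.28 for Nampt, -0.19 to 0.023 for Nmnat1 and -0.27 to 0.41 for Tdo2. For ethanol in KO they were -0.064 to 0.43 for Kmo and -0.040 to 0.38 for Nampt, and in WT -0.14 to 0.52 for Afmid. In the interaction they were -0.050 to 0.63 for Afmid, -0.047 to 0.45 for Kynu, -0.063 to 0.16 for Nmnat1, -0.73 to 0.0096 for Nnmt and -0.31 to 0.36 for Tdo2. Depth limited Nmnat1 and Acmsd most, with counting errors of 10.9% and 9.84% at their lowest libraries.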

Other observations

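Aox3 and Tdo2 differed between Xist-high and Xist-low control livers. Aox3 was at 51.1 and 56.6 FPKM in the 2 Xist-high KO control livers and at 189 in the Xist-low one, and in WT control livers at 43.9 and 44.9 where Xist was high and at 126 and 172 where it was low. All 8 ethanol livers lay between 16.3 and 56.7 FPKM, whichever their Xist class. Tdo2 was at 181 and 251 FPKM in the Xist-high KO control livers and at 363 in the Xist-low one, and in WT control livers at 161 and 165 where Xist was high and at 316 and 442 where it was low. In WT ethanol livers Tdo2 was at 174 and 362 FPKM where Xist was high and at 588 and 708 where it was low, while among KO ethanol livers the 1 Xist-high library, at 420.2 FPKM, lay within the range of the others. The split was noticed in these values and was not tested.

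Nnt, the mitochondrial transhydrogenase that passes electrons between NADH and NADPH, was at 23.2, 21.0, 29.2 and 21.2 FPKM in KO ethanol livers, against 8.40, 10.7, 14.6 and 28.1 in WT ethanol livers. The 1 WT ethanol library within the KO range was replicate 4, whose genotype field reads Fkbp5 KO. On the control diet Nnt was at 18.9, 27.4 and 19.7 FPKM in KO, against 11.0, 12.0, 14.4 and 20.3 in WT. There WT control replicate 4, at 20.3 FPKM and without a conflicting label, also lay within the KO range. The difference on ethanol was 0.71 on the log2 scale and did not pass (limma adjusted p = 0.947).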
